A study of Homo sapiens with 5 samples.

Results

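Clustered p53 sites are places where p53 was listed at several positions close together after ionizing radiation (IR). They were selected on the deposited p53 list of irradiated cells alone, as every site with another site of that list on the same chromosome no more than 25 kb away, measured between the facing borders. Of the 3232 p53 sites after IR, 414 (12.8%) met this rule and formed 198 clusters, and the other 2818 are called isolated here. The cells were BJ fibroblasts, a human foreskin line immortalized with telomerase, so that every group shares the immortalized background of 1 line. Chromatin was collected by ChIP-seq with a p53 antibody (DO-1) or with a rabbit antibody against JMJD3, from untreated cells or from cells given 10 Gy of IR and harvested 6 h later according to the labels. Each of the 4 combinations came from 1 library, the lists hold positions only, and read depth is unknown, so no test between conditions was possible. A place where no peak was listed may still have been bound. Shares are given with exact 95% binomial (Clopper-Pearson) intervals, which cover counting error only. Sites of 1 cluster depend on each other, so these intervals are narrower than the spread that repeated experiments would show.

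p53 is a transcription factor that is stabilized by DNA double-strand breaks and binds as a tetramer to response elements in promoters, introns and distant enhancers. Some of its target genes carry more than 1 response element, and the p21 gene CDKN1A, whose product stops the cell cycle by inhibiting cyclin-dependent kinases, is the best-known case. JMJD3 (KDM6B) removes methyl groups from lysine 27 of histone H3 and is thought to reach its places on chromatin largely together with other proteins. The study asked whether JMJD3 and p53 lie at the same places before and after damage, and clusters allow this to be followed from 1 p53 site to its neighbour.

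Most clusters were pairs. There were 183 clusters of 2 sites (92.4%), 13 of 3 sites, 1 of 4 sites and 1 of 5 sites. The median cluster spanned 9.71 kb, with quartiles of 4.14 and 16.4 kb, and the spans ran from 0.695 to 43.1 kb. Inside the clusters 216 gaps separated adjacent members, with a median of 7975 bp. Of these gaps, 26 (12.0%) were at most 1 kb and 127 (58.8%) at most 10 kb. Whether the closest members are pieces of 1 broader region was not tested. With p53 sites merged within 1 kb beforehand there were 179 clusters of 369 sites. The smallest gap was 51 bp, between the sites at chr1:205947142-205947654 and chr1:205947706-205947905 (hg18, counted from 1). The next smallest was 59 bp, in a pair on chromosome 17 that is described further on. Over the whole list, adjacent p53 sites were a median of 416 kb apart.

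**Figure D1:**
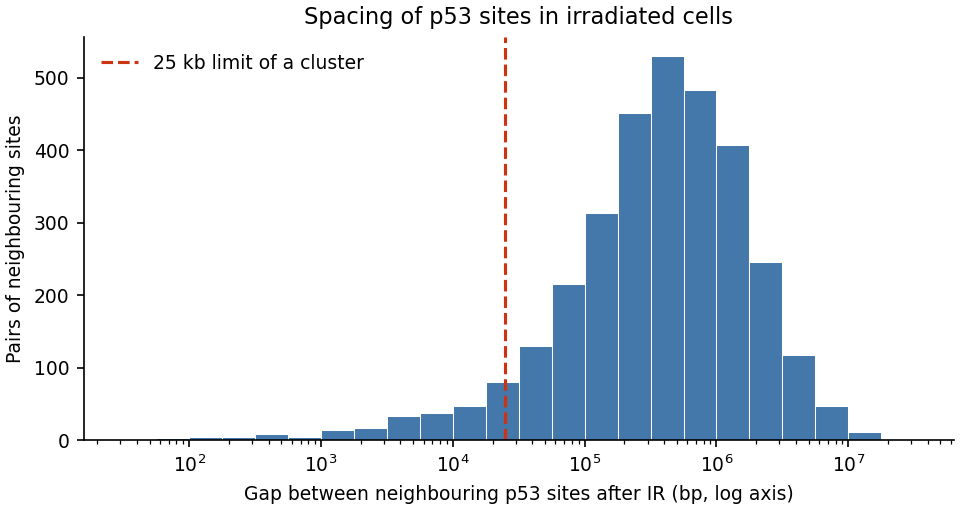
Number of pairs of neighbouring p53 sites on the same chromosome (vertical axis) against the gap between them in bp on a log axis, for all 3232 p53 sites of irradiated cells. The dashed line is the 25 kb limit, and the 216 gaps to its left lie inside clusters, whereas the median over all pairs is 416 kb.

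The limit of 25 kb is a choice. The 3 widest gaps inside it measured 24365 bp on chromosome 8, 24517 bp on chromosome 5 and 24714 bp on chromosome 2. The chromosome 2 pair had JMJD3 after IR at both sites, and neither site of the pairs on chromosomes 8 and 5 had it. The first 3 gaps beyond the limit measured 25290 bp on chromosome 1, 25431 bp on chromosome 4 and 25617 bp on chromosome 12. JMJD3 after IR was listed at 1 site of the chromosome 1 pair, at 1 site of the chromosome 4 pair and at neither site on chromosome 12.

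Clusters were found on 23 of the 24 chromosomes, all but chromosome Y. Chromosomes 1 and 3 held 21 clusters each. The share of p53 sites that were clustered was highest on chromosome 19 (22 of 105 sites, 21.0%, interval 13.6 to 30.0%), chromosome 14 (20.7%, 12.9 to 30.4%) and chromosome 3 (19.5%, 14.5 to 25.4%). The intervals of these chromosomes overlap, so their order is not resolved. Of the chromosomes with a cluster, chromosome 15 had the lowest share (4 of 100 sites, interval 1.10 to 9.93%). Chromosome 6, which carries the cluster with most members, had 15 clustered sites of 192 (7.81%, 4.44 to 12.6%). Between the clustered share and the density of p53 sites across the 24 chromosomes, Pearson r was 0.311 and Spearman rho 0.129. These points share 1 library and differ widely in the number of sites, and no relation is read from them.

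The cluster with most members, 5 sites over 15.9 kb at chr6:36742694-36758610, also held the widest p53 site of the whole list. From general knowledge of hg18, and not from an annotation used here, this stretch reaches from upstream of CDKN1A into the gene. The first member, 629 bp wide, was listed for p53 before and after IR and had a JMJD3 site after IR. The second, at chr6:36751759-36753312 and 1554 bp wide, covered 2 separate p53 sites of untreated cells and held a JMJD3 site of 156 bp after IR. The third member, 200 bp wide, began 77 bp beyond it and overlapped no site of any other list. The fourth and the fifth, of 273 and 437 bp, were listed after IR only, and each had a JMJD3 site after IR. The JMJD3 site at the fifth member was 3041 bp wide, and JMJD3 sites of 2575 and 125 bp lay in the gap before it without touching a p53 site. In all, 4 of the 5 members had JMJD3 after IR, 2 had p53 before IR, and no JMJD3 site of untreated cells lay in the cluster.

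The cluster of 4 sites lay at chr19:18336408-18360548 and spanned 24.1 kb. From general knowledge of hg18 its last 2 members fall at GDF15, a secreted stress cytokine of the TGF-beta family and a known p53 target. The first 2 members, 657 and 883 bp wide, were listed for p53 in untreated cells too, and the last 2, of 276 and 200 bp, were listed after IR only. JMJD3 after IR was listed at members 2, 3 and 4 and not at the first. The second member held 2 JMJD3 sites, of 147 and 171 bp. Here, as on chromosome 6, the members new after IR were narrower than those already listed, and JMJD3 was listed at old and new members alike. Over the whole list too, nearly all p53 sites listed before IR were at or above the median width.

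A pair at chr19:52426252-52427971, 1.72 kb across, had p53 at both members before and after IR. From general knowledge of hg18 this pair lies at BBC3, which encodes the pro-apoptotic protein PUMA. The members were 838 and 522 bp wide after IR, against 410 and 265 bp for the untreated sites they overlapped. JMJD3 was listed after IR at both members, with 2 sites at the first and 1 at the second, and in untreated cells at neither. There were 7 pairs with both members listed before IR, and JMJD3 after IR was at both members in 3 of them, at 1 member in 1 and at neither in 3. The pairs without it include one on chromosome X from 47560168 to 47563709 and one on chromosome 1 from 233899869 to 233905371. The first member of the latter overlapped a JMJD3 site of untreated cells that was not listed after IR.

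Among the clusters of 3, the shortest spanned 1271 bp at chr16:83532040-83533310, with JMJD3 after IR at its outer members and none at the middle one. No site of untreated cells lay there for either protein. In the cluster of 7.74 kb at chr5:173688133-173695875 the only member with p53 before IR, 797 bp wide, had no JMJD3 site, whereas both narrower members, 349 and 205 bp wide, had one after IR. The member of 349 bp had a JMJD3 site in untreated cells as well. The cluster of 9.75 kb at chr17:35947816-35957569 had 3 members that overlapped no site of the other lists. The shortest pair with JMJD3 at both members lay at chr17:76339921-76340636. Its members were 350 and 307 bp wide, and each overlapped a JMJD3 site of its own, of 195 and 158 bp. These clusters show that JMJD3 was shared by all members in some places, by part of them in others, and by none in others again.

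**Figure D2:**
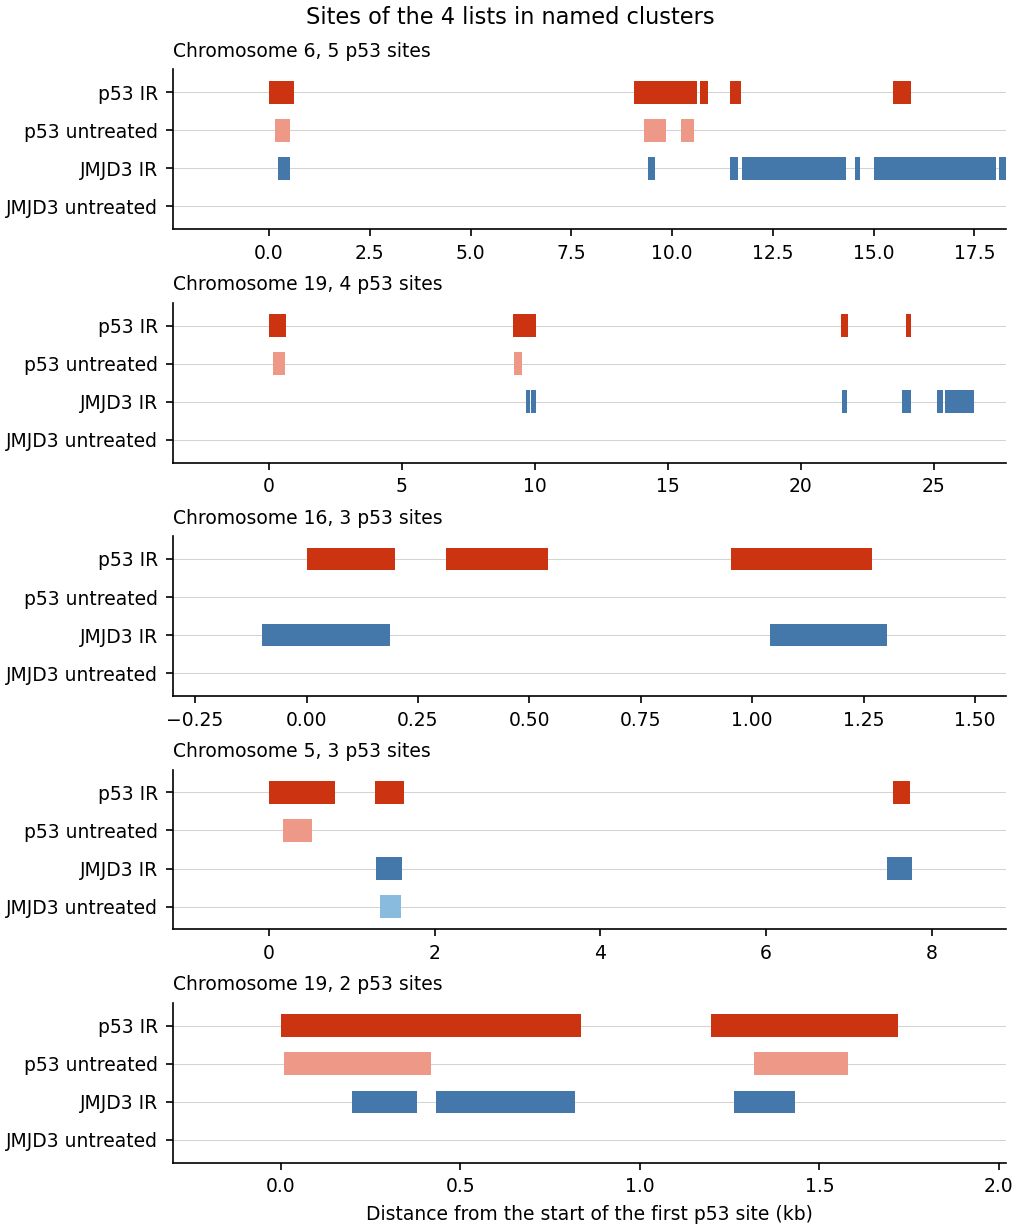
Sites of the 4 lists in 5 of the named clusters, as distance in kb from the start of the first p53 site (horizontal axis, a different scale in each panel), with 1 row per list and 1 bar per site drawn to scale. On chromosome 6 and in the cluster of 4 on chromosome 19, p53 sites of untreated cells lie under the wide early members only, while JMJD3 sites after IR also lie at the narrower members that follow.

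Of the 414 clustered sites, 74 (17.9%, 14.3 to 21.9%) shared at least 1 bp with a p53 site of the untreated list. Over all 3232 p53 sites the share was 10.6%, and over the isolated sites it was 269 of 2818 (9.55%, 8.49 to 10.7%). The difference between clustered and isolated sites was 8.33 percentage points (4.58 to 12.5, an interval built from both exact intervals by Newcombe's method). Read the other way, 75 of the 345 untreated sites that were listed again after IR (21.7%, 17.5 to 26.5%) were in a cluster after IR. Of the p53 sites not listed before IR, 340 of 2889 (11.8%) were clustered. With 50% of the p53 site covered, untreated p53 was at 11.4% of clustered sites and at 181 of 2818 isolated sites. The difference was then 4.93 points (1.88 to 8.50). With a gap limit of 100 kb the difference between clustered and isolated sites was 2.53 points (0.204 to 4.97), and with p53 sites of at least the median width it was 16.6 points. That width rule raised the share at isolated sites too, from 269 of 2818 to 299 of 1505.

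A p53 site of untreated cells was present in 65 of the 198 clusters (32.8%, 26.3 to 39.8%). The share was 21.7% with 50% of the p53 site covered and 58.6% among clusters of p53 sites of at least the median width. The width rule by itself raises such shares, as it drops narrow sites and nearly all sites listed before IR are wide. Of the adjacent pairs inside clusters, 68 of 216 (31.5%, 25.3 to 38.1%) had untreated p53 at 1 site or both, against 19.2% (17.8 to 20.6%) of pairs beyond 25 kb. In 56 clusters it was present at 1 member only, in 9 clusters at 2 members, and in 7 of these 9 at every member. The other 133 clusters had no member in the untreated list. The untreated list itself, with 361 sites, held 10 clusters by the same rule, made of 21 sites. In 9 of the 10, all sites were listed again within 1 cluster of irradiated cells, among them those at CDKN1A and BBC3 and the first 2 members of the cluster of 4 on chromosome 19. The tenth, on chromosome 6 from 151219635 to 151220535, consisted of 2 untreated sites that both fell within 1 isolated p53 site after IR. No untreated p53 site inside the span of a cluster was missing after IR. Over the whole untreated list 345 of the 361 sites were listed again, so few could be missing anywhere. In clusters with an untreated site, 65 members were listed after IR only, against 275 members in clusters with no untreated site. A cluster needs at least 2 sites after IR, so any cluster with only 1 untreated member has new members by construction. Most p53 sites were new over the whole list too, 2889 of 3232, against 340 of the 414 clustered sites. No change particular to clusters is read from the 65 and 275 members.

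In the 52 pairs with exactly 1 member in the untreated list, that member was the wider of both after IR in 52 of 52. Its width ranged from 361 to 997 bp with a median of 562 bp, and its new neighbour measured 200 to 553 bp with a median of 264 bp. The ratio of the widths had a median of 2.04 and a lowest value of 1.09. These widths come from the list that chose the members and are given as a description. With only p53 sites of at least the median width kept, 43 clustered and 299 isolated sites of the 343 with untreated p53 remained. Sites listed before IR were thus nearly all wide, clustered or not, and the order of widths is not particular to pairs. JMJD3 after IR was listed at the earlier member of 27 of these pairs (51.9%) and at the new member of 17 (32.7%). Over all p53 sites the share was 21.2%, and among isolated sites it was 27.5% of those listed for p53 before IR and 18.8% of those listed after IR only. Both members had it in 15 pairs, the earlier member alone in 12, the new member alone in 2, and neither in 23. Of the 17 new members with JMJD3, 15 thus lay beside an earlier member that had it too.

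**Figure D3:**
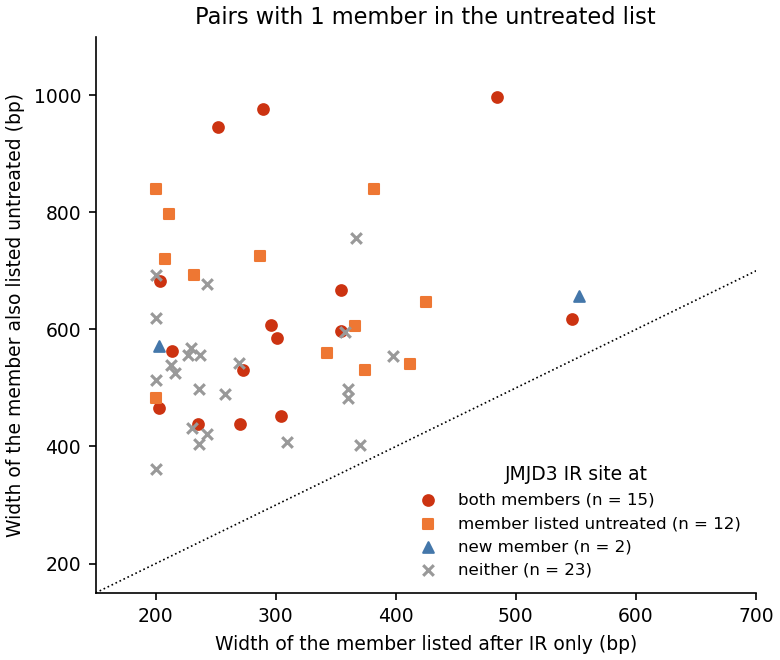
Width in bp of the member also listed in untreated cells (vertical axis) against the width of the member listed after IR only (horizontal axis) in 52 pairs, with symbols for the members that overlapped a JMJD3 site after IR. Every pair lies above the dotted line of equal widths, and only 2 pairs have JMJD3 at the new member alone. Sites listed before IR were nearly all wide over the whole p53 list, so the order of widths is not particular to pairs.

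JMJD3 after IR was listed at 134 of the 414 clustered sites (32.4%, 27.9 to 37.1%). Over all 3232 p53 sites the share was 21.2%, and over isolated sites 552 of 2818 (19.6%, 18.1 to 21.1%), so that clustered sites had it 1.65 times as often. The difference was 12.8 percentage points (8.04 to 17.7). It was 10.2 points (6.18 to 14.6) with JMJD3 sites of at least 200 bp, which lowers the clustered share to 21.0%, and 7.95 points (4.02 to 12.3) with 50% of the p53 site covered, which lowers it to 19.8%. In untreated cells the JMJD3 shares were low and close to each other, with 13 of 414 clustered sites (3.14%, 1.68 to 5.31%) against 72 of 2818 isolated sites (2.56%) and 2.63% over all sites. The difference there was 0.585 points, with an interval from -1.01 to 2.82. The smallest JMJD3 site was 200 bp wide in the untreated list and 125 bp wide after IR. JMJD3 shares before and after IR therefore do not rest on the same smallest width. Of the 13 members with JMJD3 before IR, 12 had it after IR as well, and 1 was also in the untreated p53 list. Of the 134 members with JMJD3 after IR, 84 (62.7%, 53.9 to 70.9%) were in neither list of untreated cells. This share was 74.5% (70.6 to 78.0%) of the 552 isolated sites with JMJD3 after IR and 72.2% of all 686, so it was no higher in clusters.

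**Figure D4:**
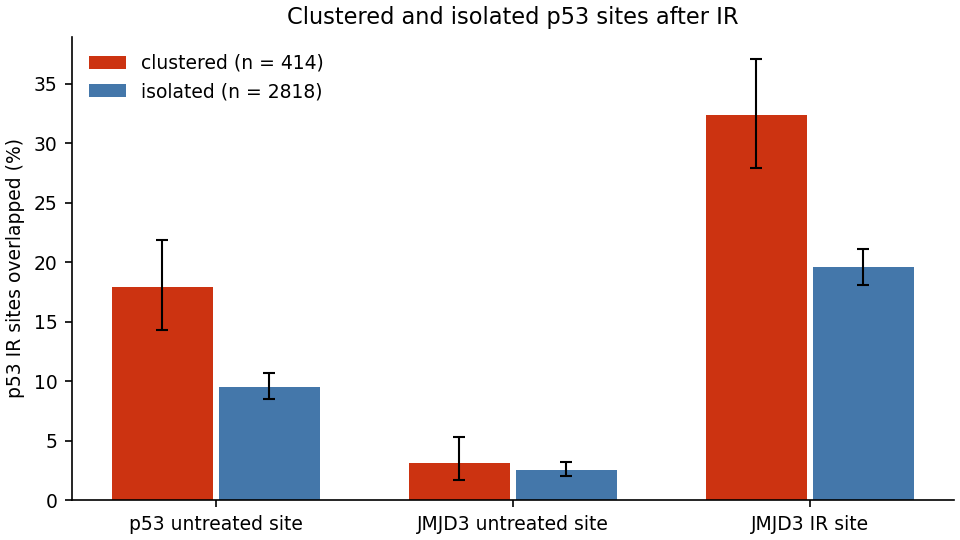
Percentage of clustered (n = 414) and isolated (n = 2818) p53 sites of irradiated cells that overlapped a site of each of the other 3 lists, with exact 95% binomial intervals as error bars. The clustered share is higher for p53 in untreated cells (17.9% against 9.55%) and for JMJD3 after IR (32.4% against 19.6%), and the intervals overlap for JMJD3 in untreated cells.

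The share with JMJD3 after IR was higher at clustered than at isolated sites within each group of sites compared by untreated listing, by width and by surroundings, but the intervals overlapped in 5 of these 9 groups. Among sites already listed for p53 before IR, JMJD3 after IR was at 51.4% of clustered sites (38 of 74, 39.4 to 63.1%) and at 27.5% of isolated sites (22.3 to 33.3%). Among sites listed for p53 after IR only, the shares were 28.2% (23.5 to 33.3%) and 18.8% (17.3 to 20.3%). By width of the p53 site, the largest difference was above the upper quartile of 375 bp, with 43.1% (34.6 to 51.8%) against 24.6% (21.4 to 28.1%). Up to the lower quartile of 225 bp the shares were 27.1% (19.0 to 36.6%) and 19.5% (16.7 to 22.7%), with overlapping intervals, as in both groups of intermediate width. Clustered sites themselves were slightly wider, with a median of 302 bp against 287 bp.

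Clustered sites also lay in surroundings richer in JMJD3. JMJD3 sites after IR that touched no p53 site were centred within 25 kb of 265 clustered sites (64.0%, 59.2 to 68.6%) and of 49.8% of isolated sites (47.9 to 51.7%). There were 3 or more of them near 29.7% of clustered sites and near 16.3% of isolated sites. Among p53 sites with no such JMJD3 site around, JMJD3 overlapped 31 of 149 clustered sites (20.8%, 14.6 to 28.2%) and 182 of 1415 isolated sites (12.9%, 11.2 to 14.7%), and the intervals just overlapped. With 1 or 2 around, the shares were 31.7% (24.1 to 40.0%) and 20.4% (17.9 to 23.1%), and the intervals were apart. With 3 or more around, the shares were 47.2% (38.1 to 56.4%) and 38.6% (34.2 to 43.3%), with overlapping intervals. The part of these surroundings in the difference between clustered and isolated sites was not tested.

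Counted over clusters, JMJD3 after IR was listed at 1 or more members of 98 of the 198 (49.5%, 42.3 to 56.7%). A cluster has at least 2 sites at which JMJD3 can be listed, so this is best read against other pairs of neighbouring p53 sites. Of the 216 adjacent pairs inside clusters, 107 (49.5%, 42.7 to 56.4%) had JMJD3 at 1 site or both, against 158 of 384 pairs from 25 to 100 kb apart (41.1%, 36.2 to 46.3%) and 1076 of the 2992 pairs beyond 25 kb (interval 34.2 to 37.7%). Of these 98 clusters, 27 (27.6%, 19.0 to 37.5%) had it at every member and 71 (72.4%) at part of the members. The share with JMJD3 at every member depends on the overlap and width rules. It was 12.3% (9 of 73 clusters) with JMJD3 sites of at least 200 bp, 13.2% with 50% of the p53 site covered and 41.6% when JMJD3 up to 1 kb away was counted. By the reported rule all 27 were pairs. Among the 183 pairs, 95 had no JMJD3 site after IR, 61 had it at 1 member and 27 at both. Of the 13 clusters of 3, 5 had it at no member, 4 at 1 member and 4 at 2 members. The clusters of 4 and 5 had it at 3 and 4 members. Clusters with an untreated p53 site had JMJD3 after IR in 37 of 65 cases (56.9%, 44.0 to 69.2%), and those without in 61 of 133 (45.9%, 37.2 to 54.7%), with overlapping intervals. In 72 clusters (36.4%) no member was in the untreated p53 list and none had JMJD3 after IR.

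Where members shared JMJD3, each had its own site. The 134 members were overlapped by 140 JMJD3 sites after IR, 6 members by 2 or more, and no JMJD3 site touched more than 1 member. The 33 adjacent pairs with JMJD3 at both sites therefore had separate JMJD3 sites. JMJD3 sites at members were mostly far shorter than the gaps, with medians of 232 and 7975 bp, so separate sites follow largely from size. Of the 140 JMJD3 sites, 128 (91.4%) had no counterpart in untreated cells, against 494 (86.7%) of the 570 JMJD3 sites at isolated p53 sites. The JMJD3 list as a whole grew from 4717 to 35133 sites, so a high share of this kind is not particular to clusters. The share over the whole JMJD3 list is not given here. The untreated list held no JMJD3 site under 200 bp, whereas 53 of the 140 (37.9%) were narrower than that. The part of this in the share without a counterpart was not tested. The median width was 232 bp at clustered and 211 bp at isolated p53 sites. A further 107 JMJD3 sites lay in the gaps between members without touching a p53 site, in 54 clusters, and in 19 clusters these were the only JMJD3 sites. The cluster with most of them, 12 sites, was a pair on chromosome 2 from 37710084 to 37735114, chosen for mention after its values were seen. Both of its members were in the untreated p53 list, and 1 of them had JMJD3 after IR. Per length, the gaps held 52.7 such sites per Mb, against 26.4 per Mb within 25 kb of isolated p53 sites. These regions are unlike, as the gaps lie between 2 p53 sites and have a median of 7975 bp. The clusters with most of the 107 sites held 12, 7 and 6 of them, and no interval was computed. No trait of clusters is read from the densities. In 81 clusters no JMJD3 site after IR was listed at a member or between members.

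JMJD3 at 1 member went with JMJD3 at the nearest other member. Where the nearest member of the cluster had JMJD3 after IR, 61 of 130 sites had it (46.9%, 38.1 to 55.9%), and where the nearest member had none, 73 of 284 did (25.7%, 20.7 to 31.2%). The difference was 21.2 percentage points (10.8 to 31.5), and each pair of mutual neighbours enters from both sides, so this interval is too narrow. The difference rests in part on narrow JMJD3 sites. It was 6.87 points (-3.36 to 18.5) with JMJD3 sites of at least 200 bp only, which leaves 87 of the 134 members with JMJD3, and 35.1 points when JMJD3 up to 1 kb away was counted.

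Sharing was more frequent at short than at long distances, though not falling at every step. JMJD3 sites of every width were counted, and the series was not repeated with sites of at least 200 bp only. Both sites had JMJD3 in 7 of 26 adjacent pairs with gaps of up to 1 kb (26.9%), in 9 of 57 between 1 and 5 kb (15.8%), in 5 of 44 between 5 and 10 kb (11.4%) and in 12 of 89 between 10 and 25 kb (13.5%). Beyond the clusters it was 37 of 384 pairs between 25 and 100 kb (9.64%), 59 of 1185 between 100 and 500 kb (4.98%) and 49 of 1423 over 500 kb apart (3.44%). Sites whose neighbour had JMJD3 had it themselves in 60.9% of cases at up to 1 kb (38.5 to 80.3%), in 37.9% between 25 and 100 kb (31.1 to 45.2%) and in 18.4% beyond 500 kb (15.2 to 21.9%). Sites whose neighbour had none had it in 22.2% to 31.0% of cases inside the clusters and in 18.9% beyond 500 kb (17.3 to 20.5%). Within each distance range of up to 10 kb the intervals of both kinds of sites overlapped, and they were apart between 10 and 25 kb, where the second value was 22.2% (15.3 to 30.5%). From 100 kb on the intervals overlapped again, with 24.0% (20.3 to 28.0%) against 19.9% (18.1 to 21.8%) between 100 and 500 kb. Pairs from 25 to 100 kb still differed (37.9% against 21.1%, 17.8 to 24.7%), and the share beside a neighbour with JMJD3 just inside the limit, 46.2% between 10 and 25 kb (32.2 to 60.5%), overlapped that just beyond it.

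**Figure D5:**
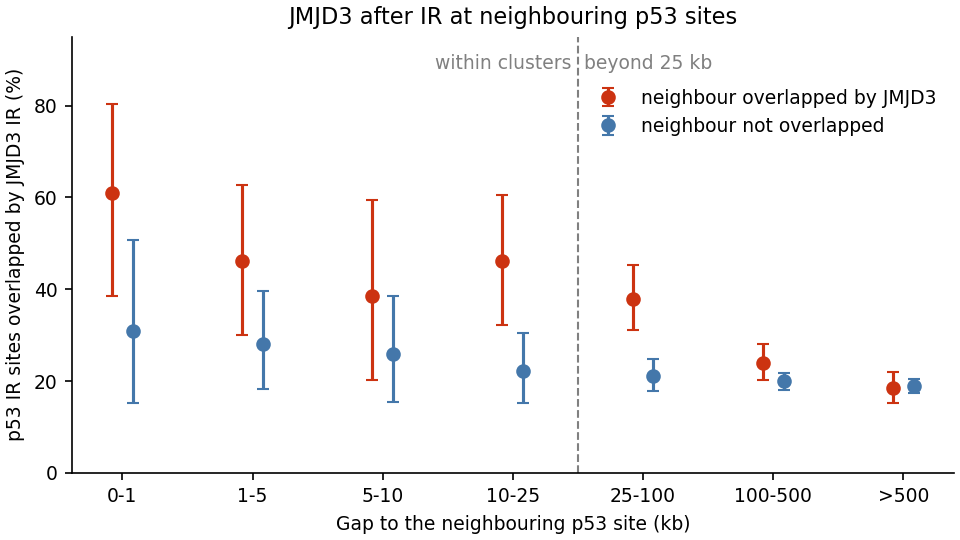
Percentage of p53 sites of irradiated cells overlapped by a JMJD3 site after IR (vertical axis) by the gap to the neighbouring p53 site in kb (horizontal axis), for sites whose neighbour was or was not overlapped by JMJD3, with exact 95% binomial intervals. Inside the clusters, left of the dashed line, the red points lie between 38.5% and 60.9% and the blue points between 22.2% and 31.0%, and both meet near 19% beyond 500 kb. JMJD3 sites of every width are counted.

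The same counts were made for the untreated p53 list, and the lists were not compared in this respect. In adjacent pairs within clusters both members were in the untreated list in 9 of 216 cases (4.17%), against 32 of 2992 pairs beyond 25 kb (1.07%). A member whose adjacent member was listed before IR was itself listed in 23.4% of cases (14.5 to 34.4%), and otherwise in 16.6% (12.9 to 20.9%), with overlapping intervals.

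JMJD3 in untreated cells was found in 12 clusters (6.06%, 3.17 to 10.3%) and at every member of none. Most of these clusters had it at 1 member. The exception was a cluster of 3 on chromosome 7 from 184747 to 198081, named after its values were seen, in which the last 2 members, 280 and 200 bp wide, had JMJD3 before and after IR and no member was in the untreated p53 list.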

How the data were processed

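Binding sites of p53 and JMJD3 were taken from 4 lists, 1 library each. The authors used Bowtie 0.12.7 on hg18, kept unique alignments, and called sites per library with MACS version 2 against IgG. The deposited columns are positions and give no heights or read totals, so depth is unknown. The peak threshold is not given in the sources used here. The IgG library was not analysed here. The labels put harvest 6 h after IR and the paper's text 5 h. Multiply aligned tags were left out, so repeats are missed.

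Sites were linked where the gap between borders was at most 25 kb, and overlap meant at least 1 bp. Steps used Python 3.11.15, numpy 2.4.6, scipy 1.17.1 and matplotlib 3.10.9. bedtools 2.31.1 gave the same 198 clusters of 414 sites. On simulated lists of 3200 sites, 200 of 200 planted pairs were recovered with 0 false ones. No test was made, as there are no replicates.

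The rule, the named clusters and the splits were chosen with earlier results of these data known. The splits by width, untreated listing, surrounding JMJD3 and distance were added after seeing the data. Named are clusters of the largest sizes, then the shortest clusters of 3 up to 5 in all, those that hold any of the 3 widest p53 sites (only the cluster on chromosome 6 does), the 3 with most members under JMJD3 after IR and the 3 with most under untreated p53 (shortest first), and the pairs at the edges of the gap range. No annotation of hg18 was used. CDKN1A, GDF15 and BBC3 are placed from general knowledge. Alternatives were other gap limits, overlap rules, minimum widths, merging and autosomes alone.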

Additional observations from a re-analysis of the deposited data

How the results depend on the processing

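None of the 3 differences changed sign under an alternative, although the interval of the difference by nearest member spanned 0 with JMJD3 sites from 200 bp up (-3.36 to 18.5 points). Shares cannot change sign. Of all values, 50 of 83 comparisons with the reported value stayed within its counting interval. The 33 others follow. The gap limit sets the number of clusters by construction. At 10, 50 and 100 kb the clustered share of the p53 sites was 7.64%, 20.2% and 33.2%, in 120, 309 and 473 clusters. At 100 kb, clustered sites had untreated p53 in 12.3% and JMJD3 after IR in 27.1% of cases, 25.6% of clusters had untreated p53, JMJD3 was at every member in 17.7% of the clusters that had it, and the difference from isolated sites for untreated p53 was 2.53 points. Merging within 1 kb gave a clustered share of 11.5%, and autosomes alone moved nothing beyond the intervals.

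With p53 sites of at least the median width, where fewer sites enter by construction, 7.27% were clustered. Of these, 36.4% had untreated p53 and 39.8% JMJD3 after IR, against 299 and 318 of the 1505 isolated sites. Of the 58 clusters, 58.6% had untreated p53 and 56.9% JMJD3, at every member in 39.4%. The differences from isolated sites were 18.7 points for JMJD3 and 16.6 for untreated p53.

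Stricter overlap lowers shares by construction. With 50% of the width covered, untreated p53 was at 11.4% of clustered sites and in 21.7% of clusters, and JMJD3 at 19.8% of sites and in 34.3% of clusters, at every member in 13.2%, with a difference of 7.95 points from isolated sites. With the centre inside, JMJD3 was at 23.7% of sites and in 38.4% of clusters. Within 1 kb it was at 41.1% of sites and in 57.1% of clusters, at every member in 41.6%, and the difference by nearest member was 35.1 points. Counting JMJD3 sites from 200 bp up, the values were 21.0%, 36.9%, 12.3% and 6.87 points in the same order. Unknown depth and 1 library per condition limit every comparison. No paired analysis was possible because there was a single library per antibody and exposure.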
